A study of Mus musculus with 63 samples.

Results

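Exosomal microRNAs (Exo-miRs) of plasma were compared between 16 LS-G6pc-/- mice and 3 wild-type (WT) mice of 16-18 months, the oldest age group of the study. These 19 mice were all the mice that the labels place in age group 6, with and without tumor, of 63 mice in the whole series. The labels give the age as a group number, and the months of each group come from the study's text. LS-G6pc-/- mice lack G6pc in the liver alone and model glycogen storage disease type 1a, whereas the WT mice carry no such deletion. Among the LS-G6pc-/- mice, 10 had a hepatocellular adenoma (HCA) and 6 had none, 10 had amyloidosis and 6 had none, 5 had both diagnoses and 1 had neither. No WT mouse had either diagnosis. The sources used here do not name the driver of the deletion or the sex of the mice. Each mouse gave 1 plasma sample and 1 card, so that n counts mice.

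G6pc encodes the catalytic subunit of glucose-6-phosphatase, the enzyme of the last step by which the liver releases glucose from glycogen and from gluconeogenesis. A liver without it stores glycogen and fat, and adenomas form with age. Exosomes are small vesicles that cells release into blood, and plasma exosomes carry microRNAs from blood cells, platelets, endothelium, liver and other organs. A microRNA is a short RNA that lowers the output of target mRNAs, which it recognizes mainly through its seed, bases 2 to 8 counted from its 5′ end.

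The sequences of some of the microRNAs named below follow, with the seed in capitals and the rest in lower case. They are the mature sequences of RefSeq (GRCm38.p6), and an assay name without an arm was taken as the usual main arm. miR-486 and miR-140, which also had an unadjusted p under 0.05, are not shown because the sequence source used did not hold them. Shown are, in turn, the microRNA whose genotypes did not overlap, a neighbour of it and another microRNA that were measured in LS-G6pc-/- mice alone, the 10 retained members of the miR-17/92a cluster and its paralogs, and a further pair with an unadjusted p under 0.05.
miR-409-3p: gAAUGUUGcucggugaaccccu
miR-380-5p: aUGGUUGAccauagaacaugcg
miR-139-3p: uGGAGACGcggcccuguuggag
miR-17-5p: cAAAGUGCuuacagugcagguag
miR-20a-5p: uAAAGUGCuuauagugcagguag
miR-20b-5p: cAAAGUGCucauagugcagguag
miR-93-5p: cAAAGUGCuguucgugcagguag
miR-106a-5p: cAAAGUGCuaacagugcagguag
miR-106b-5p: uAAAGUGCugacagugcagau
miR-25-3p: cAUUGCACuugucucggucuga
miR-92a-3p: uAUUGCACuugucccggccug
miR-19a-3p: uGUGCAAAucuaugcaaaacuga
miR-19b-3p: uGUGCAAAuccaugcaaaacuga
miR-301a-3p: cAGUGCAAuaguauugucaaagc
miR-193b-3p: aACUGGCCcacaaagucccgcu
Among these, 6 share the seed AAAGUGC, 2 share AUUGCAC and 2 share GUGCAAA, while each of the other 5 has a seed of its own.

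RNA of plasma exosomes was reverse transcribed, pre-amplified and measured by qRT-PCR on TaqMan Rodent MicroRNA A cards of 384 wells, of which 375 held microRNA assays and 9 held control wells. A Ct is the PCR cycle at which the signal crosses a threshold, so a lower Ct means more template, and 1 cycle corresponds to 1 unit on the log2 scale. A well counted as measured where its Ct lay from 14 to 32. The level of a microRNA was the card's mean measured Ct minus the Ct of the microRNA, in log2 units, so that a higher value means a higher level. A difference between groups is the mean level of LS-G6pc-/- mice minus that of WT mice.

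The 3 WT cards differed widely in depth. WT104 had 183 measured wells, WT206 had 118 and WT207 had 81. The LS-G6pc-/- cards had from 68 to 157 measured wells, with a median of 118, so the WT mice included a card deeper than every LS-G6pc-/- card and a card shallower than all but 1. The mean number of measured wells was 117.88 in LS-G6pc-/- and 127.33 in WT mice, a difference of -9.46 that was smaller than the spread between mice (two-sided exact permutation test over 969 assignments, p = 0.557). Without WT104 the difference was 18.38, and without WT207 it was -32.62. The mean measured Ct was 27.44 in LS-G6pc-/- and 27.62 in WT mice (two-sided exact permutation test, p = 0.506), and the WT mice spanned 26.67 to 28.63 against 27.01 to 28.14 in the LS-G6pc-/- mice. U6, a small nuclear RNA on 4 wells of each card, had a mean Ct between 18.06 and 26.08 in the LS-G6pc-/- group, while WT104, WT206 and WT207 had 20.91, 20.56 and 24.63.

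Card depth moved with the microRNA levels. Of the 375 microRNA assays, 61 were missing in at most 5% of the 63 mice and were retained for the level comparison. The median level of these 61 on a card was 3.20 in WT104, 1.44 in WT206 and 0.06 in WT207, and from -1.03 to 2.28 in the LS-G6pc-/- mice, with a median of 0.93. Over the 16 LS-G6pc-/- mice this median was higher on cards with more measured wells (Pearson's r = 0.904, Spearman's rho = 0.856). The relation was r = 0.784 without the 2 mice farthest from the median depth and r = 0.967 within the 10 LS-G6pc-/- mice of 1 run period. These correlations are a description only, since the level is set against the mean over the measured wells, whose number is the depth. On the deepest cards that mean was 26.67 in WT104 and 27.04 in KO846. On the shallowest cards it was 28.63 in WT207 and 27.81 in KO1313. Why the levels moved with depth was not tested. A run period is the calendar year in which the card was run. With the number of measured assays as a covariate, the median difference between genotypes described next was -0.69 in place of -0.94, and 0 microRNAs were called (limma).

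**Figure D1:**
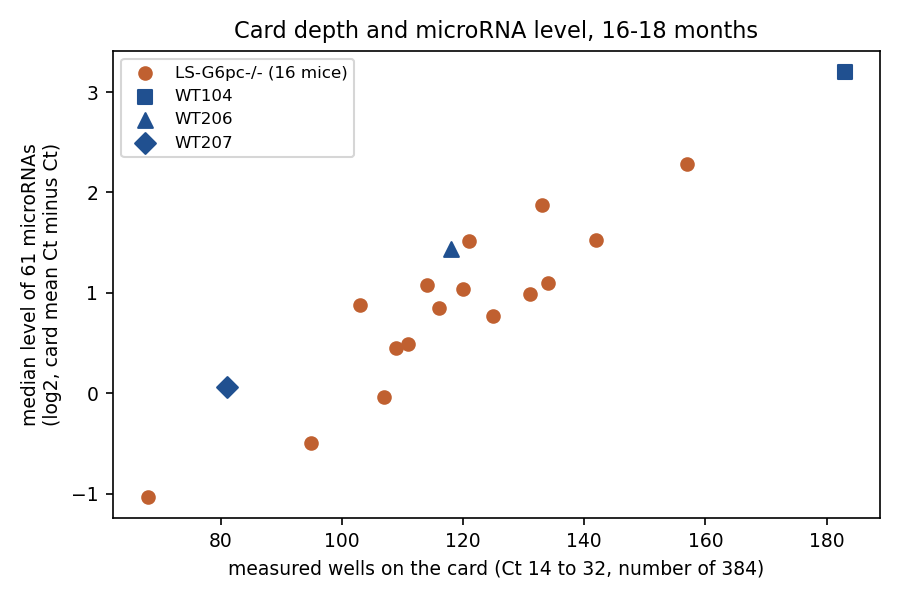
Each point is 1 mouse of 16-18 months, with the number of measured wells on its card on the x axis and the median log2 level of the 61 retained microRNAs on the y axis. WT104 lies at the upper right with 183 wells and a median of 3.20, and WT207 at the lower left with 81 wells and a median of 0.06.

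No microRNA passed the test between LS-G6pc-/- and WT mice. Of 61 retained microRNAs, 0 had an adjusted p under 0.05 (0%; limma with Benjamini-Hochberg adjustment, smallest adjusted p = 0.296), and 8 had an unadjusted p under 0.05. Of these 8, 7 were lower in LS-G6pc-/- mice (11.5% of those tested) and 1 was higher (1.64%). By sign alone 48 of the 61 were lower and 13 were higher in LS-G6pc-/- mice, and the median difference was -0.94. The differences ran from -2.08 for miR-486 to 2.17 for miR-409-3p. The 95% interval of a difference reached 1.71 to either side in the median microRNA, it covered 0 for 53 of the 61, and for 0 of them did it lie within -1 and 1, so these cards cannot show that any microRNA was equal in both genotypes.

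**Figure D2:**
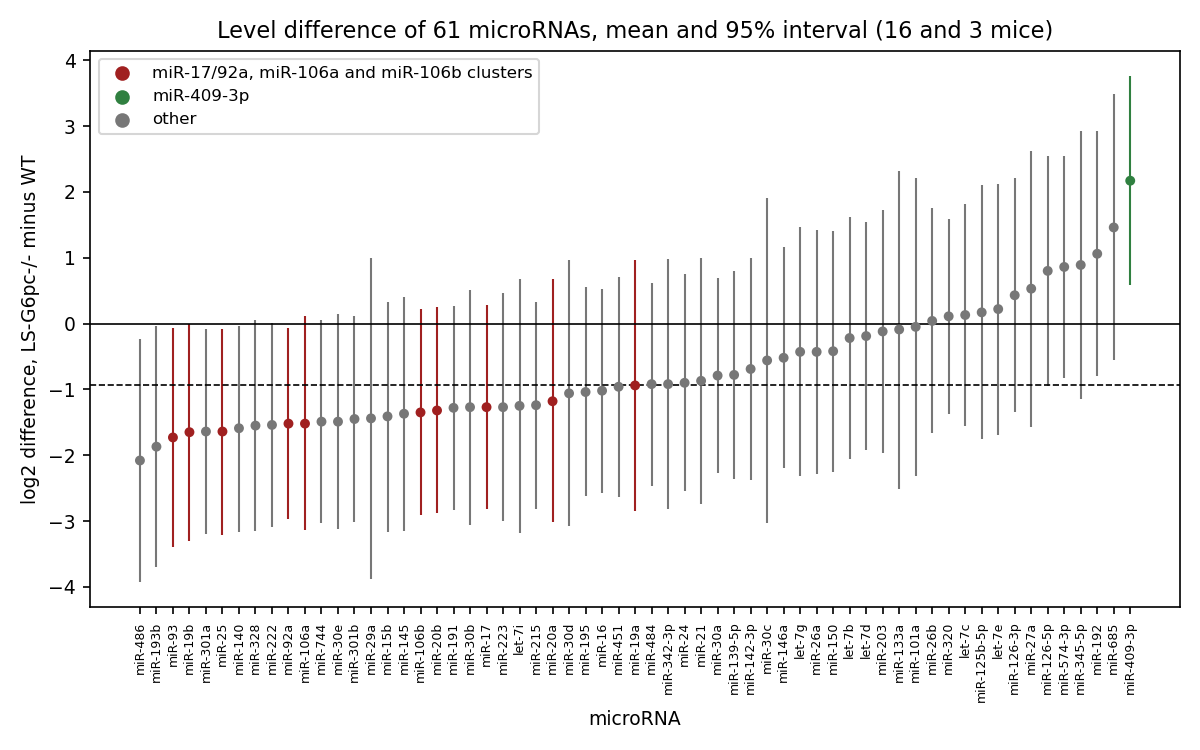
The y axis gives the log2 difference, LS-G6pc-/- minus WT, of each of the 61 retained microRNAs on the x axis, ordered by size, with a line for its 95% interval (16 and 3 mice). The dashed line is the median difference of -0.94, the members of the miR-17/92a cluster and its paralogs lie below 0, and miR-409-3p stands at the right end at 2.17.

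Much of this shift rested on the WT104 card. Its level was above that of every LS-G6pc-/- mouse for 41 of the 61 microRNAs, whereas that of WT206 was above all of them for 4 and that of WT207 for 2. WT104 was the highest of the 3 WT mice for 50 microRNAs and WT207 the lowest for 50. Without WT104 the median difference was -0.21, with 36 microRNAs lower and 25 higher, and without WT207 it was -1.57, with 57 lower and 4 higher. The median standard deviation over the 61 microRNAs was 1.63 in the WT mice and 1.23 in the LS-G6pc-/- mice of this age, while in the WT groups of the earlier ages, also of 3 mice each, it ran from 0.41 to 0.66. For 47 of the 61 the standard deviation was larger in the WT mice. The limma fit takes 1 spread for both genotypes, so its unadjusted p tends to be too small where the WT mice spread more. With the mean of the microRNAs measured in every mouse as reference in place of the card mean, the median difference was -0.19, with 37 lower and 24 higher.

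miR-409-3p was the only microRNA among the 61 whose mice did not overlap between genotypes with LS-G6pc-/- higher (1.64%), and for 0 of the 61 were all LS-G6pc-/- mice lower than all WT mice (0%). It lies in the imprinted Dlk1-Dio3 region, at chr12:109743204-109743225 on the plus strand. Its level was -1.93 in WT104, -2.13 in WT206 and -3.14 in WT207. In LS-G6pc-/- mice it ran from -1.83 to 1.85 with a median of -0.63, so that all 16 lay above the highest WT mouse, the nearest of them only narrowly. The difference was 2.17 ± 0.78 (SE, n = 16 and 3), or 4.5-fold, with a 95% interval of 0.59 to 3.76, and it did not pass the adjustment (limma, p = 0.0086, adjusted p = 0.296). With run period as a block it was 2.85 and passed (limma, adjusted p = 0.0226), and with the mean of the microRNAs measured in every mouse as reference it was 2.92 and passed (limma, adjusted p = 0.043). Over the 38 alternatives that gave a value, the difference was 1.55 to 2.92 and the adjusted p 0.0226 to 0.726 (limma and the other tests run). Within the run period that held 10 LS-G6pc-/- mice and WT206 it was 1.49, and within the one that held 4 LS-G6pc-/- mice and the other two WT mice it was 3.77. The study had also chosen miR-409-3p from these mice, so that its direction here is no independent evidence.

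**Figure D3:**
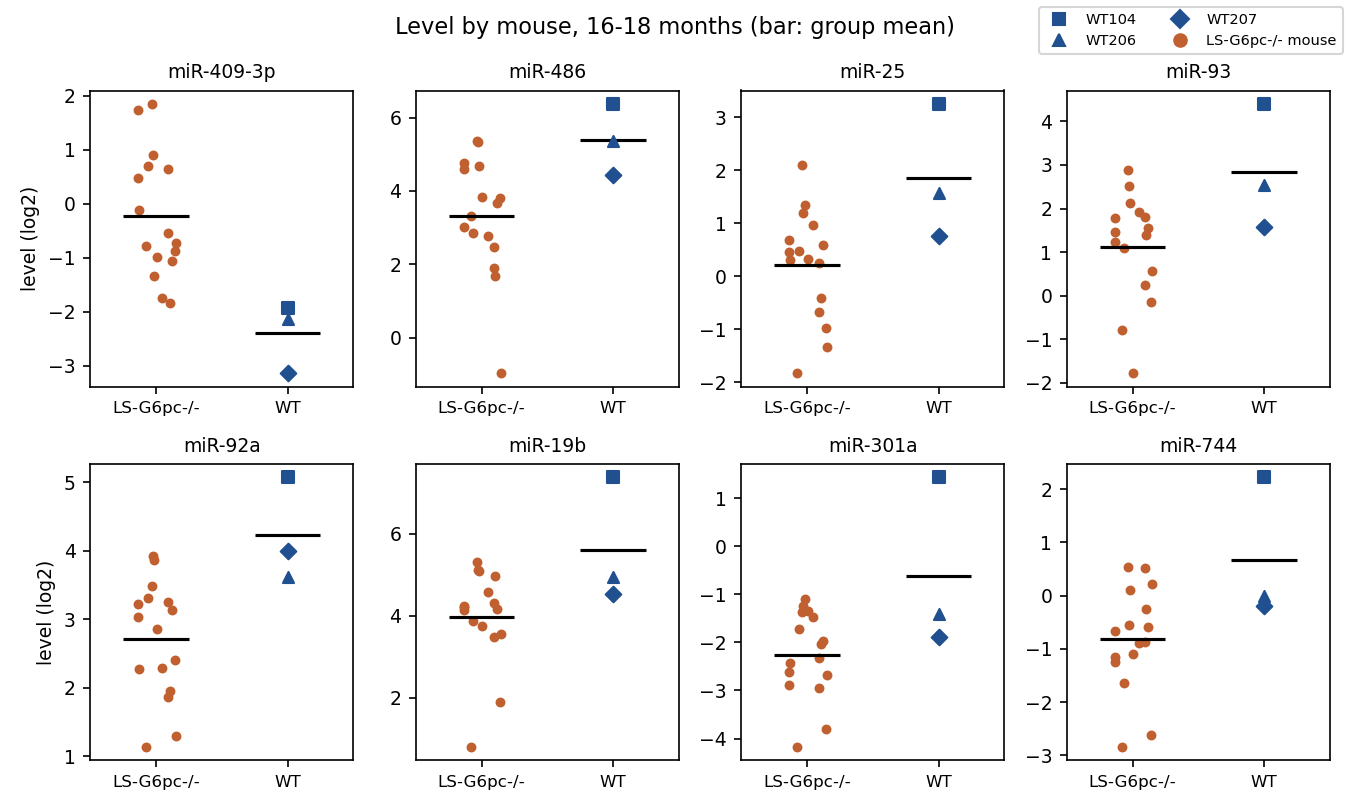
The y axes give log2 levels of 8 microRNAs, with 1 point for each mouse, the 16 LS-G6pc-/- mice at the left and the 3 WT mice at the right of each panel, and a bar at the group mean. The WT mice lie below all LS-G6pc-/- mice for miR-409-3p, from -3.14 to -1.93 against -1.83 to 1.85, and in the other 7 panels the WT104 square lies above all LS-G6pc-/- mice.

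Among the microRNAs that were lower by size, miR-486, which is abundant in red cells, had the largest difference. Its level was 6.37 in WT104, 5.37 in WT206 and 4.44 in WT207, and from -0.97 to 5.36 in LS-G6pc-/- mice, with a median of 3.49. WT104 was above every LS-G6pc-/- mouse and WT206 at the height of the highest, and 11 of the 16 LS-G6pc-/- mice were below the lowest WT mouse. The difference was -2.08 ± 0.91 (SE; limma, p = 0.0285, adjusted p = 0.296), a level 4.22-fold lower. Of the 3 red cell microRNAs on the list that were on the card, 3 were retained, 0 passed the test, and the other two, miR-16 and miR-451, had differences of -1.02 and -0.96, close to the median of all 61. The 3 members had a median difference of -1.02.

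The miR-17/92a cluster and its paralogs are growth-promoting, and each cluster is transcribed as 1 precursor. They lie on chromosome 14 (miR-17, miR-19a, miR-20a, miR-19b and miR-92a within chr14:115043684-115044496), on chromosome X (miR-106a, miR-20b and further copies of miR-19b and miR-92a within chrX:52741854-52742563) and on chromosome 5 (miR-106b, miR-93 and miR-25 within chr5:138165332-138165807). All 10 retained members were lower by sign and 0 passed the test. Their median difference was -1.44, with a range of -1.73 to -0.94, against -0.79 over the other 51 retained microRNAs. The medians were -1.64 for the 3 members on chromosome 5, -1.27 for the 5 on chromosome 14 and -1.52 for the 4 on chromosome X, 2 of which chromosome 14 also encodes.

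miR-93, of the cluster on chromosome 5, had a level of 4.40 in WT104, 2.55 in WT206 and 1.57 in WT207 against -1.78 to 2.88 in LS-G6pc-/- mice, with a median of 1.43. The -1.78 was a missing value set below the lowest level, and the lowest measured level in LS-G6pc-/- mice was -0.78. The neighbour of miR-93, miR-25, had 3.25, 1.57 and 0.75 in the same WT mice against -1.83 to 2.10, with a median of 0.38. Both had WT104 alone above all LS-G6pc-/- mice, and WT206 and WT207 lay within their range. The differences were -1.73 for miR-93 (limma, p = 0.0431, adjusted p = 0.296) and -1.64 for miR-25 (limma, p = 0.0396, adjusted p = 0.296), and both were -0.95 without WT104.

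miR-92a, which shares the seed of miR-25 and is encoded on chromosomes 14 and X, was the member with the least overlap. Its level was 5.07 in WT104, 3.61 in WT206 and 3.99 in WT207, and from 1.14 to 3.92 in LS-G6pc-/- mice, with a median of 2.95. WT104 lay clearly and WT207 narrowly above every LS-G6pc-/- mouse, and 14 of the 16 LS-G6pc-/- mice lay below the lowest WT mouse. The difference was -1.52 ± 0.72 (SE; limma, p = 0.0411, adjusted p = 0.296), or 2.86-fold lower, and it was -1.10 without WT104 and -1.63 without WT207. miR-19b, of the same clusters, had 7.37, 4.95 and 4.52 in WT104, WT206 and WT207 against 0.81 to 5.30 in LS-G6pc-/- mice, and a difference of -1.65 (limma, adjusted p = 0.296) that was -0.77 without WT104.

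The differences of the members of the miR-17 family, which share the seed AAAGUGC, were -1.73 for miR-93, -1.52 for miR-106a, -1.35 for miR-106b, -1.32 for miR-20b, -1.27 for miR-17 and -1.18 for miR-20a, with a median of -1.33. The median of all 61 was -0.94, and 0 of the 6 were called (limma). Without WT104 the differences were -0.95 for miR-93, -0.84 for miR-106a, -0.55 for miR-106b, -0.29 for miR-20b and -0.31 for miR-20a, and with quantile normalization that of miR-20a was -0.03. miR-17 was not followed under the alternatives.

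miR-193b, miR-301a and miR-140 were the other 3 with an unadjusted p under 0.05. miR-301a and miR-140 were named after their values were seen. miR-193b had -0.05 in WT104, 0.48 in WT206 and -1.96 in WT207 against -5.51 to 0.73 in LS-G6pc-/- mice, with a median of -2.10, and a difference of -1.87 (limma, p = 0.0467, adjusted p = 0.296). The -5.51 was a missing value set below the lowest level, and the lowest measured level in LS-G6pc-/- mice was -4.51. miR-193b was the 1 microRNA of the 7 lower ones for which WT206, and not WT104, was the highest WT mouse, and 1 LS-G6pc-/- mouse was above it. miR-301a had 1.43, -1.41 and -1.88 in WT104, WT206 and WT207 against -4.17 to -1.10, and a difference of -1.64 (limma, adjusted p = 0.296), and miR-140 had a difference of -1.59 (limma, adjusted p = 0.296). Without WT104 these were -0.61 for miR-301a and -0.63 for miR-140.

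Of the microRNAs that the study tied to HCC (miR-744, miR-29a, miR-15b, miR-145, miR-342-3p and miR-142-3p), 6 of 6 were retained, 6 were lower by sign and 0 passed the test, with a median difference of -1.39. The study chose them on these mice among others. miR-744 had 2.22 in WT104, 0.00 in WT206 and -0.20 in WT207 against -2.84 to 0.54 in LS-G6pc-/- mice, with a median of -0.77, so that only WT104 lay above them all. Its difference was -1.49 ± 0.76 (SE; limma, p = 0.0587, adjusted p = 0.296) and was -0.71 without WT104. miR-29a, which restrains collagen, had a difference of -1.44, miR-15b, from a family of cell-cycle repressors, of -1.41, miR-145, of smooth muscle and mesenchyme, of -1.37, and miR-342-3p of -0.92. miR-142-3p, of blood cells, had 5.79 in WT104 and 1.44 and 0.71 in the other two WT mice against -0.32 to 3.39, and its difference of -0.69 turned to 0.88 without WT104.

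Of the 5 microRNAs that the study tied to inflammation and chose on these mice, 3 were higher and 2 were lower by sign and 0 passed the test, with a median difference of 0.89. After miR-409-3p came miR-192, an abundant hepatocyte microRNA, with 1.57, 2.49 and -0.70 in WT104, WT206 and WT207 against -0.94 to 4.19 in LS-G6pc-/- mice and a difference of 1.06, and 9 of the 16 LS-G6pc-/- mice lay above the highest WT mouse. miR-345-5p had a difference of 0.89, and 11 LS-G6pc-/- mice lay above its highest WT value of -0.55. miR-21 and miR-150, the latter of lymphocytes, had differences of -0.87 and -0.42, whose signs turned with quantile normalization. Without WT207, the difference of miR-192 was 0.15 and that of miR-345-5p was 0.58.

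The families and sources of microRNAs spread around the median of -0.94, and 0 members of any list passed the test (0%). The miR-30 family had 5 of 5 members retained, 5 lower by sign and a median of -1.06, with miR-30e at -1.49 and miR-30b at -1.27. That median is the difference of miR-30d, for which 2 missing LS-G6pc-/- values were set below the lowest level. With missing values left out, miR-30d was at -0.59 and miR-30b, with 1 such value, at -1.03. The miR-15/16 family had 3 retained and a median of -1.04, with miR-195 at -1.04. miR-222, which represses a cell-cycle inhibitor, was the 1 retained member of its pair, at -1.54. The let-7 family, known to repress components of insulin signaling, had 6 of 9 retained and a median of -0.20, with let-7i at -1.25 and let-7g at -0.43. miR-27a, at 0.53, and miR-24, at -0.90, were the 2 retained of the miR-23/24/27 clusters.

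The 4 microRNAs that the study tied to glucose and lipid metabolism (miR-744, miR-29a, let-7i and miR-342-3p), also chosen on these mice, had a median of -1.35. The miR-19 family had a median of -1.29 over 2 members and the miR-25 family of -1.58 over 2, while the miR-29 family was retained with miR-29a alone and the mesenchymal list with miR-145 alone. Of 4 hepatocyte microRNAs only miR-192 was retained, and WT104 and WT206 had all 4 measured and WT207 had 1.

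MicroRNAs of platelets and myeloid cells had 2 retained members, miR-223 at -1.27 and miR-126-3p at 0.43, and the 4 retained microRNAs of lymphocytes had a median of -0.61. The lists of muscle, with miR-133a at -0.09, and of epithelium, with miR-203 at -0.12, had 1 retained member each, and of the 4 brain microRNAs 0 were retained. The 16 microRNAs of the study's time course were all retained, 16 were lower by sign, and their median was -1.27, between let-7d and miR-203 near 0 and miR-19b at -1.65. These 16 had been chosen on these mice. For 2 of them, let-7d and miR-142-3p, the study describes a turn from lower to higher in older LS-G6pc-/- mice, from medians by age. By the difference of means used here they were at -0.19 and -0.69, lower by sign. By medians both were higher in LS-G6pc-/- mice, the direction that the study describes. The median of let-7d was -0.79 in LS-G6pc-/- and -1.92 in WT mice, and that of miR-142-3p was 2.07 and 1.44. WT104, at 1.69 and 5.79, was the highest WT mouse for both. The sign of let-7d, let-7g, let-7i, miR-133a, miR-142-3p, miR-150, miR-203, miR-21, miR-24, miR-126-3p, miR-27a and miR-574-3p turned under at least 1 alternative. The signs counted for the lists that hold them are those of the main levels and are not stable for these members. Whether the plasma vesicles came from other cells in the 2 genotypes was not tested.

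Many assays gave no signal at this age. Of the 375 microRNA assays, 164 were measured in no mouse of 16-18 months and 164 in mice of both genotypes, of which 48 were measured in every one of the 19. A further 32 were found in LS-G6pc-/- mice alone and 15 in WT mice alone. All 15 of the latter were measured in WT104 alone and included let-7a, let-7f and miR-98 of the let-7 family and miR-23a, which were thus at 1 of 3 WT and 0 of 16 LS-G6pc-/- mice. These 4 were chosen after their values were seen. Of the 66 assays measured in exactly 1 WT mouse, 63 were measured in WT104.

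Detection was tested for the 119 assays measured in 2 to 17 mice, and 0 passed (0%; two-sided Fisher's exact test with Benjamini-Hochberg adjustment, 0 with an unadjusted p under 0.05). The smallest p that 16 against 3 mice allow is 0.00103, which multiplied by the assays tested is 0.123, so that a single assay could not have passed. The smallest p came from miR-467c, found in 2 of 3 WT mice and 1 of 16 LS-G6pc-/- mice (exact p = 0.0506, adjusted p = 0.962). miR-139-3p, the minor arm of a precursor whose other arm, miR-139-5p, was retained at a difference of -0.78, followed with 11 of 16 and 0 of 3 (exact p = 0.0578, adjusted p = 0.962). miR-380-5p was measured in 10 of 16 and 0 of 3 (exact p = 0.0867, adjusted p = 0.962). miR-494 and miR-224 were each found in 13 of 16 LS-G6pc-/- mice and, of the WT mice, in WT104 alone (exact p = 0.155, adjusted p = 0.962). miR-204 and miR-429 had the same exact p, with 3 of 16 and 2 of 3 mice.

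The Dlk1-Dio3 region on chromosome 12 encodes a large cluster of microRNAs that are expressed from the maternal chromosome, and it holds miR-409-3p, miR-380-5p (chr12:109711806-109711827, plus strand) and miR-494. Of its 39 assays on the card, 17 were measured in at least 1 mouse of this age. Their share of mice was higher in LS-G6pc-/- than in WT for 13 of the 17 and lower for 3, and 11 of the 17 had no measured Ct on any WT card. Over all 211 assays measured in at least 1 mouse, the share was higher in LS-G6pc-/- for 64 and lower for 99, and 32 had no measured Ct on any WT card. A LS-G6pc-/- mouse had from 2 to 11 measured assays of the cluster, with a median of 5, and WT104, WT206 and WT207 had 6, 2 and 1. These values overlapped, and WT104 had more measured microRNA assays in all (176) than any LS-G6pc-/- mouse (151 at most). The 15 WT mice of 1-15 months had 2 to 13, with a median of 5, and the 29 LS-G6pc-/- mice of those ages 1 to 20, with a median of 6. With 16 mice against 3, an assay in 0 WT mice counts as higher in LS-G6pc-/- however few of those mice hold it. Neither the number of such assays nor the 13 of 17 that includes them is therefore a comparison of the genotypes. Only 1 of the 39, miR-409-3p, was measured in all 19.

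**Figure D4:**
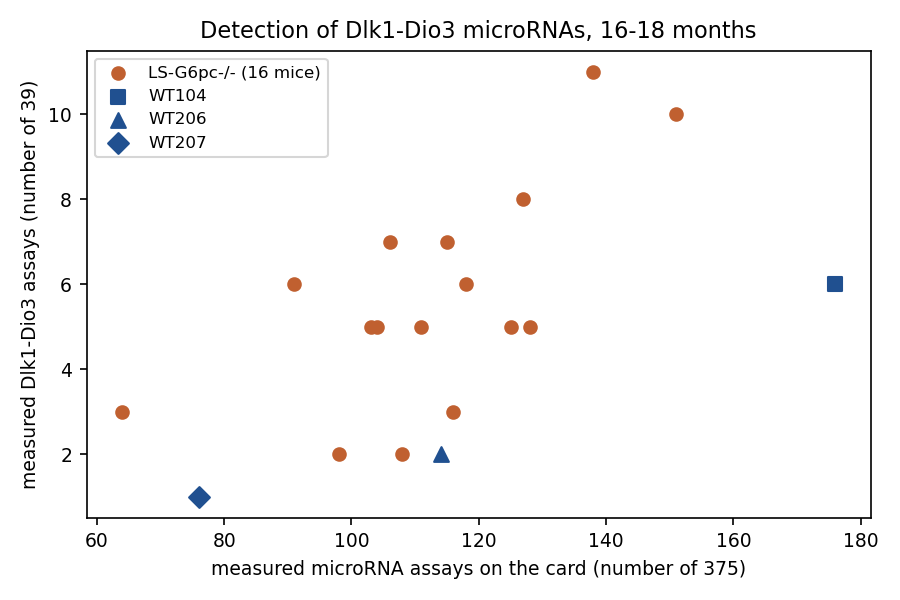
Each point is 1 mouse of 16-18 months, with the measured microRNA assays on its card (of 375) on the x axis and the measured assays of the Dlk1-Dio3 cluster (of 39) on the y axis. WT104 has 176 measured assays and 6 of the cluster, and 5 LS-G6pc-/- mice with fewer measured assays have 7 to 11.

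Among the LS-G6pc-/- mice, those with and without HCA were compared to find whether the difference from WT mice went with adenoma. For 60 of the 61 microRNAs the mean was lower with HCA by sign, with a median difference of -0.59, and 0 passed the test (0%; limma, 3 with an unadjusted p under 0.05, smallest adjusted p = 0.697). Mice with HCA had 68 to 134 measured wells, with a median of 120.5, and mice without had 103 to 157, with a median of 115. The mean went the other way, at 114.3 with HCA and 123.8 without. Once the mice of under 100 measured wells were left out, the median difference was -0.25, with 45 lower and 16 higher. With the mean of the microRNAs measured in every mouse as reference the median difference was 0.02, with 28 lower and 33 higher. Against WT mice, the mice with HCA had a median difference of -1.15 and those without -0.54, and 0 microRNAs passed in either comparison (limma, 5 and 2 with an unadjusted p under 0.05).

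miR-145 had the smallest p of the HCA comparison. The study had also chosen miR-145 for HCA on these mice among others, so its rank here is no independent evidence. Its level ran from -4.22 to 0.43 in mice with HCA, with a median of -0.69, from -0.10 to 1.51 in mice without, with a median of 0.71, and was 1.32, 2.08 and -0.72 in WT104, WT206 and WT207. The groups with and without HCA overlapped in a narrow range only. The difference was -1.75 ± 0.67 (SE, n = 10 and 6; limma, p = 0.0126, adjusted p = 0.697). miR-133a, of muscle, had a difference of -2.11 (limma, adjusted p = 0.697) and miR-193b of -1.49 (limma, adjusted p = 0.697). With the other diagnosis as a covariate the median difference was -0.57, with 0 called (limma).

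Mice with and without amyloidosis, the deposition of a fibrillar protein that follows chronic inflammation, were compared in the same way. The median difference was 0.16, with 24 microRNAs lower and 37 higher by sign, and 0 passed the test (0%; limma, 1 with an unadjusted p under 0.05, smallest adjusted p = 0.945). miR-345-5p ran from -0.74 to 2.11 with amyloidosis, with a median of -0.12, and from -5.37 to 1.16 without, with a median of -1.07, and its difference was 1.89 (limma, p = 0.0184, adjusted p = 0.945). It was 0.37 once the mice of under 100 measured wells were left out. The -5.37 of miR-345-5p was a missing value set below the lowest level, and the lowest measured level in LS-G6pc-/- mice was -3.75. miR-486 had a difference of -1.41 (limma, adjusted p = 0.945) and miR-125b-5p of 1.45 (limma, adjusted p = 0.945). For miR-125b-5p, 2 values were set in the same way, both in mice without amyloidosis. The study had also chosen miR-345-5p and miR-486 for amyloidosis on these mice among others, so their ranks here are no independent evidence. The sign of the median difference was not stable, since it was -0.50 without the mice of under 100 measured wells and -0.20 with HCA as a covariate. Only 1 LS-G6pc-/- mouse had neither diagnosis, so that 5 of the 6 without HCA had amyloidosis and 5 of the 6 without amyloidosis had HCA.

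**Figure D5:**
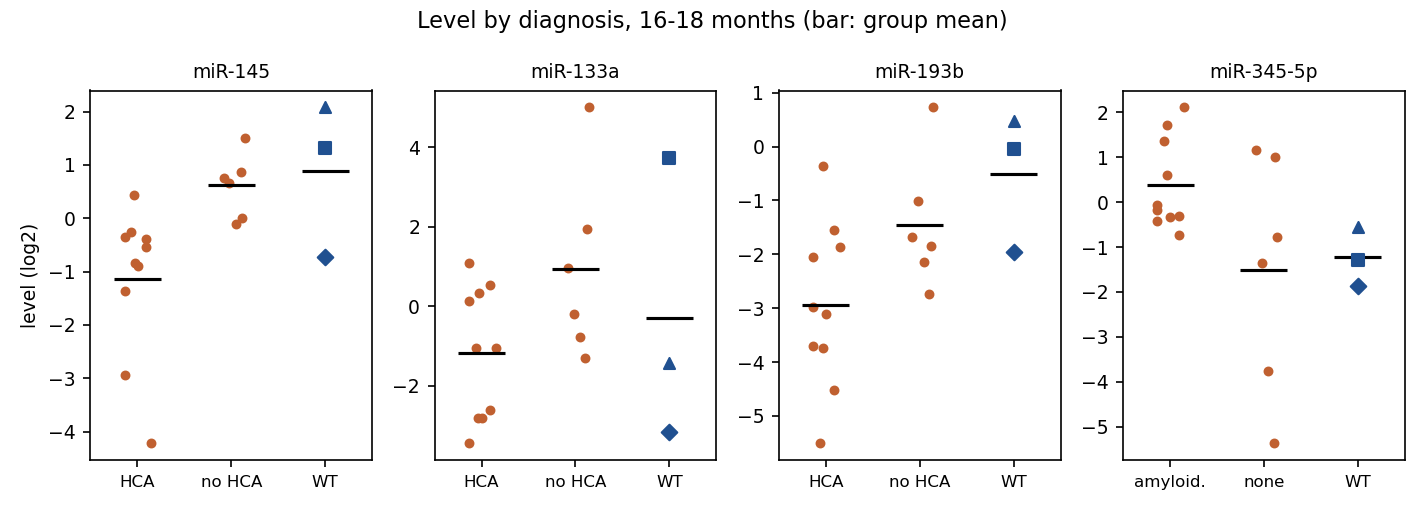
The y axes give log2 levels by mouse, with a bar at the group mean, of miR-145, miR-133a and miR-193b in 10 LS-G6pc-/- mice with HCA, 6 without and 3 WT mice, and of miR-345-5p in 10 mice with amyloidosis, 6 without and 3 WT mice. For miR-145 the mice with HCA reach from -4.22 to 0.43 and those without from -0.10 to 1.51.

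The difference between genotypes at 16-18 months was set against the mean of the differences at the 5 earlier ages, in a fit of 12 groups over 63 mice. The median change of the difference was 0.12, with 29 microRNAs below 0 and 32 above, and 0 passed the test (0%; limma, 0 with an unadjusted p under 0.05, smallest adjusted p = 0.899). Without WT104 the median change was 0.84 and without WT207 it was -0.66, with 0 called in either fit (limma). The smallest p belonged to miR-574-3p, whose difference was 0.86 at 16-18 months and -0.60 on average before, a change of 1.46 with a 95% interval of -0.10 to 3.01 (limma, adjusted p = 0.899). miR-193b changed by -1.45 (limma, adjusted p = 0.899). miR-409-3p had differences of 2.0, 0.98, 0.22, -1.50 and 0.60 at the 5 earlier ages, from the youngest on, and 2.17 at 16-18 months, and its change of 1.71 had a 95% interval of -0.47 to 3.89 (limma, adjusted p = 0.899). In this fit of 12 groups, which takes the spread from all 63 mice, 0 of the 61 differences at 16-18 months passed (limma, 12 with an unadjusted p under 0.05, smallest adjusted p = 0.199).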

How the data were processed

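The authors isolated exosomes from plasma, ran 1 TaqMan card per mouse and deposited raw Ct values and normalized Ct values, both in cycles, which are log2 units that fall as the template rises. Wells without a Ct are entered as 40, and the deposited values of the 24192 wells equalled those of the single card files, whose CT column is given in cycles (other unit). The authors' normalized values differed from the Ct minus the mean measured Ct of the mouse by at most 0.03, except in the U6 wells, where they differed by up to 1.76. They were used as an alternative only.

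Levels were computed from the raw Ct in R (version 4.3.3) and Python (version 3.11.15). The card mean of the Ct from 14 to 32 was taken over all measured wells, controls included. microRNAs missing in at most 5% of the 63 mice were kept, and a missing value was set 1 unit below the lowest level of the microRNA over the 63 mice, which concerned 14 values of LS-G6pc-/- and 1 of WT mice. The study's text names the imputation method without its steps. limma (version 3.58.1) was fitted on all retained microRNAs with Benjamini-Hochberg adjustment at 0.05, with no covariates, and was run on simulated data. The simulated mice of both genotypes had the spread of the LS-G6pc-/- mice and no shift shared by a card. That run therefore does not show how the test behaves with the wider WT spread and unequal card depth found here. Fisher's exact test was used for detection and, for depth, an exact permutation test. Run periods held 2, 10 and 4 LS-G6pc-/- mice and 0, 1 and 2 WT mice. The rank product method of the study was run with 100 permutations as an alternative and BETR was not used here. Tests per microRNA that the methods name for Ct values were also run as an alternative. The 5 microRNAs with the largest difference in each direction, those of the study's lists and time course, up to 4 of each further list and those with the smallest p in each other comparison were named. The members and lists were chosen with earlier results of these data known. Gene coordinates were taken from RefSeq GRCm38.p6. Precision rests on the number of mice and of measured wells, and nothing beyond the mouse label says that the cards were separate extractions.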

Additional observations from a re-analysis of the deposited data

Results flagged for a closer look

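The plant control assay, which has no target in mouse, had a Ct of 31.56 in 1 LS-G6pc-/- mouse, KO846, which also had the most measured wells of the LS-G6pc-/- mice, and no measured Ct in the other 18. A mouse far from the others was looked for in 16 groups of values of the HCA and amyloidosis comparisons, and none was found by Dixon's criterion, which chance would meet in about 1 of 20 groups.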

How the results depend on the processing

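The level comparison was repeated under 39 alternatives, and the count of microRNAs called stayed at 0 except for 1, miR-409-3p, with the mean of the microRNAs measured in every mouse as reference (2.92) and with run period as a block (2.85). Leaving out each mouse in turn gave 0 called throughout. Of 41 microRNAs followed, 29 kept their direction under every alternative that gave a value. The median difference was -1.57 to -0.21 over the mice left out, -1.56 with U6 as reference and -0.10 with quantile normalization. The counts of the HCA, amyloidosis, age and detection comparisons stayed at 0 under all alternatives run. The median change at 16-18 months against earlier ages moved to -0.73 without the cards of under 100 measured wells. No paired analysis was possible because every card came from a different mouse of a single genotype.

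These differences turned sign. With the mean of the microRNAs measured in every mouse as reference, let-7d was 0.45, let-7g 0.32, miR-133a 0.66, miR-142-3p 0.06, miR-150 0.32 and miR-203 0.63. With quantile normalization, let-7d was 0.44, let-7g 0.25, miR-133a 0.45, miR-142-3p 0.32, miR-150 0.66, miR-203 0.91, miR-21 0.14 and miR-24 0.08. With sample weights, let-7d was 1.20, let-7g 0.83, let-7i 0.07, miR-133a 1.27, miR-142-3p 0.45 and miR-21 0.27. With measured wells as a covariate, let-7d was 0.22, let-7g 0.06, miR-133a 0.51 and miR-203 0.33. With the mice without HCA alone, let-7d was 0.24, miR-133a 1.23 and miR-203 0.16. With U6 as reference, miR-126-3p was -0.19 and miR-27a -0.23, and without cards of under 100 measured wells miR-126-3p was -0.54. miR-133a was 0.00 at a Ct limit of 35, and let-7d was 0.04 with missing values left out, 0.04 over assays measured in at least 8 LS-G6pc-/- and 2 WT mice, and 0.06 with missing values set to the mean. Over the mice left out, the ranges were -1.53 to 1.91 for miR-133a, -0.97 to 1.10 for let-7d, -1.53 to 0.73 for miR-203, -1.21 to 0.97 for let-7g, -2.04 to 0.17 for let-7i, -1.66 to 0.88 for miR-142-3p, -1.44 to 0.23 for miR-21, -1.32 to 0.16 for miR-150, -0.78 to 1.05 for miR-126-3p, -0.07 to 1.20 for miR-27a, -0.12 to 1.44 for miR-574-3p and -32.62 to 18.38 for the difference in measured wells. The causes were not tested.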

Other observations

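A few assays outside the retained 61 had levels that spread over many cycles. miR-598 was measured in 14 LS-G6pc-/- mice, with a lowest level of 0.25, a median of 8.45 and a highest of 11.08, and was at 11.06 in WT104, 2.35 in WT206 and -2.36 in WT207. miR-155, a microRNA of activated immune cells, was measured in 13 LS-G6pc-/- mice from -3.80 to 8.47, with a median of -1.87, and was at -0.85 in WT104 and -1.91 in WT206. Among the retained microRNAs, miR-30c reached 11.39 in 1 LS-G6pc-/- mouse against a median of 2.72. A fit over the 98 assays measured in at least 8 LS-G6pc-/- and 2 WT mice left missing values out. There miR-34a had a difference of -2.70 (limma, adjusted p = 0.335) and miR-186 of -2.13 (limma, adjusted p = 0.335). miR-34a ran from -4.79 to -1.07 in the 12 LS-G6pc-/- mice where it was measured. It was at -0.45 in WT104 and -0.29 in WT206 and was not measured in WT207. These microRNAs were named after their values were seen, and none passed the test.

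miR-685 gave the earliest Ct of the retained microRNAs in LS-G6pc-/- mice, with a mean level of 7.05 against 5.59 in WT mice (limma, difference 1.46, adjusted p = 0.382), ahead of miR-16 with 5.25 against 6.27, which was the highest in WT mice. An order across assays is one of Ct only, since assays differ in efficiency.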
